A study of Rattus norvegicus with 93 samples.

Results

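The step from day 5 to day 7 of healing was followed in holes of 4 mm drilled through the calvaria, the flat bone of the skull roof, of male rats aged 12 weeks. Arrays were chosen by their titles: 5 arrays of 4 mm defects at day 7 and 11 arrays of 4 mm defects at day 5, which are 16 of the 93 arrays of the series. The surgery was the same in both groups: a disc of bone was cut out with a trephine, the dura mater below it was left whole, the wound was sutured and no agent was given. The bone and healing plug of each defect, taken with a trephine as wide as the hole, gave 1 RNA sample and 1 one-colour Agilent array. The day 7 arrays came from rats numbered 10, 12, 13, 14 and 15, and the day 5 arrays from rats numbered 10 to 14 and 16 to 21. Whether a number stands for the same animal on both days is not given in the sources used here, nor is the strain, and unoperated bone was not analysed here. Defects of 8 mm, which the series calls critical-size, provide a second comparison of the same days with 5 and 12 arrays and no array in common. Their day 7 arrays carry the same rat numbers as those of 4 mm defects, and whether the animals are the same is not given.

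A hole in bone first fills with a clot, which inflammatory cells enter and which fibroblasts and vessels replace with granulation tissue. In the skull roof osteoblasts from the bone edge, the periosteum and the dura then lay down bone directly in this tissue, and osteoclasts and proteases remodel it. Each value below is log2 of a probe's ratio to its own median over the series, so that a difference compares the same probe between arrays, and levels of different genes cannot be set against each other. The lowest ratio deposited is 0.01, or -6.64 on the log2 scale, and values at this floor have no order. In a plug of mixed tissue, fewer cells of a type and less RNA per cell cannot be told apart.

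The groups of arrays differed in their share of values at the floor, in which day, batch and scaling cannot be told apart. The share of probes at the floor was 13.4%, 11.9%, 16.7%, 15.0% and 12.4% on the day 7 arrays of rats 10, 12, 13, 14 and 15, against a lowest, median and highest share of 10.0%, 10.4% and 10.7% at day 5. The groups did not overlap, and the difference of 3.53 percentage points had an exact two-sided permutation p of 0.000229, the smallest that 4368 regroupings can give. On the other days of 4 mm defects the share ran from 10.1% to 10.8% at days 1 and 3 and from 13.8% to 23.1% at days 10 to 21. The median log2 value of probes never at the floor was 0.44 ± 0.09 at day 7 and 0.12 ± 0.34 at day 5 (SD, n = 5 and 11, exact permutation p = 0.0529). Beside Col1a1, 33 other genes kept a distance from Col1a1 on the 16 arrays that varied by an SD under 0.01 on the log2 scale, among them Col3a1, Sparc, Actb, B2m, Lyz2 and many ribosomal protein genes, a pattern picked out after the values were seen. All 34 differed by 0.36 to 0.37 and none passed the test, so that these probes give 1 shared course and not 34. This course did not follow the level on every array: the common value was -1.21 in day 5 rat 10 and -0.66 in day 7 rat 12, where the median of genes never at the floor was 0.67 and 0.53. On some other arrays both had the same sign, and no correlation over the 16 arrays was computed. Scanner brightness was not analysed here, and saturation of these probes was not tested.

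Skeletal muscle genes set 5 of the day 5 arrays apart. The mean log2 value of the 23 muscle genes measured was 2.02, 5.30, 3.63, 4.04 and 4.84 in day 5 rats 17, 18, 19, 20 and 21, and between -1.58 and -0.14 in the other 6. It was between -1.98 and -1.72 on the 5 day 7 arrays, below all 11 at day 5. Muscle lies on the skull beside such defects, and the part of its RNA in the differences of other genes was not tested. Counts are also given without these 5 arrays. Of the 18 bone formation genes measured, 11 were above the floor on all 16 arrays, and none was at the floor throughout either group.

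**Figure D1:**
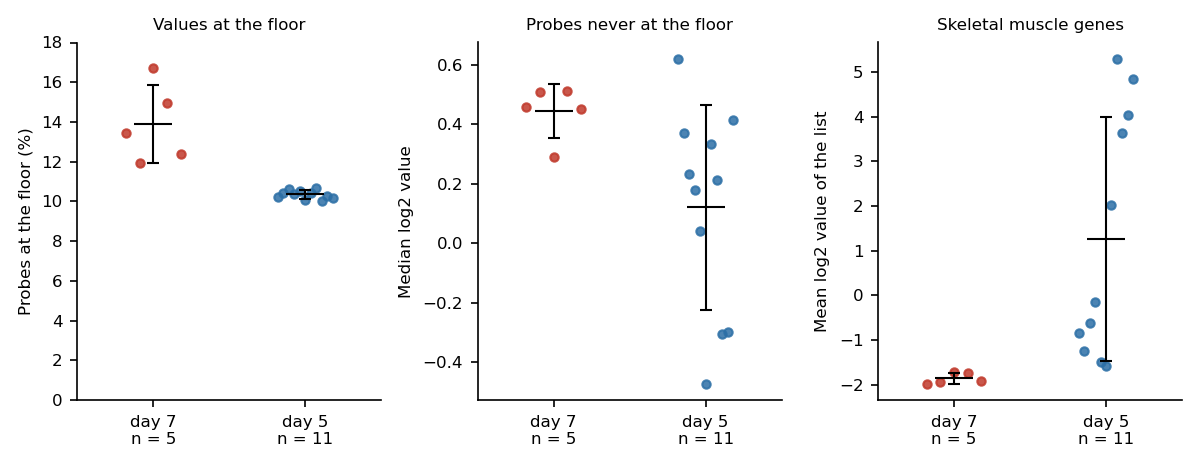
Share of probes at the floor (%), median log2 value of the probes never at the floor, and mean log2 value of the skeletal muscle list on each array of 4 mm defects, day 7 (5 arrays) left of day 5 (11 arrays). Points are arrays, the dash is the mean and the bar 1 SD. All day 7 arrays lie above the day 5 arrays in floor share, and 5 day 5 arrays stand apart in muscle genes.

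Of 15975 genes tested, 436 (2.73%) passed an adjusted p of 0.05 in limma's test over all genes, 266 (1.67%) higher and 170 (1.06%) lower at day 7. The median change of all genes was 0.11 on the log2 scale. Since the floor share differed, genes above the floor on all 16 arrays were counted alone: 288 of 9572 (3.01%) passed, 253 (2.64%) higher and 35 (0.366%) lower. Thus 135 of the 170 lower calls rested on at least 1 value at the floor, and 14 of these genes stood at the floor on all 5 day 7 arrays. Values of both groups did not overlap for 853 genes (5.34%), 771 higher (4.83%) and 82 lower (0.513%), among them 207 of the higher and 36 of the lower calls.

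The balance of higher and lower calls depended on how arrays were scaled. Higher genes were 61.0% of the calls as deposited. With each array centred on the median of 5413 genes never at the floor in the series, they were 38.9% of 1235 calls. After quantile normalization they were 59.1% of 1618, and 10.1% of 189 (19 higher, 170 lower) with arrays aligned on the 34 parallel genes. These scalings moved the median change of all genes to -0.17, 0.01 and -0.25. Without the 5 day 5 arrays rich in muscle genes, 94 genes passed, 53 higher and 41 lower, of which 93 were among the 436. That setting kept 6 day 5 arrays, and the part of the smaller number of arrays in the lost calls was not tested. Without day 7 rat 15, which had the largest effect of any single array, 233 passed.

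**Figure D2:**
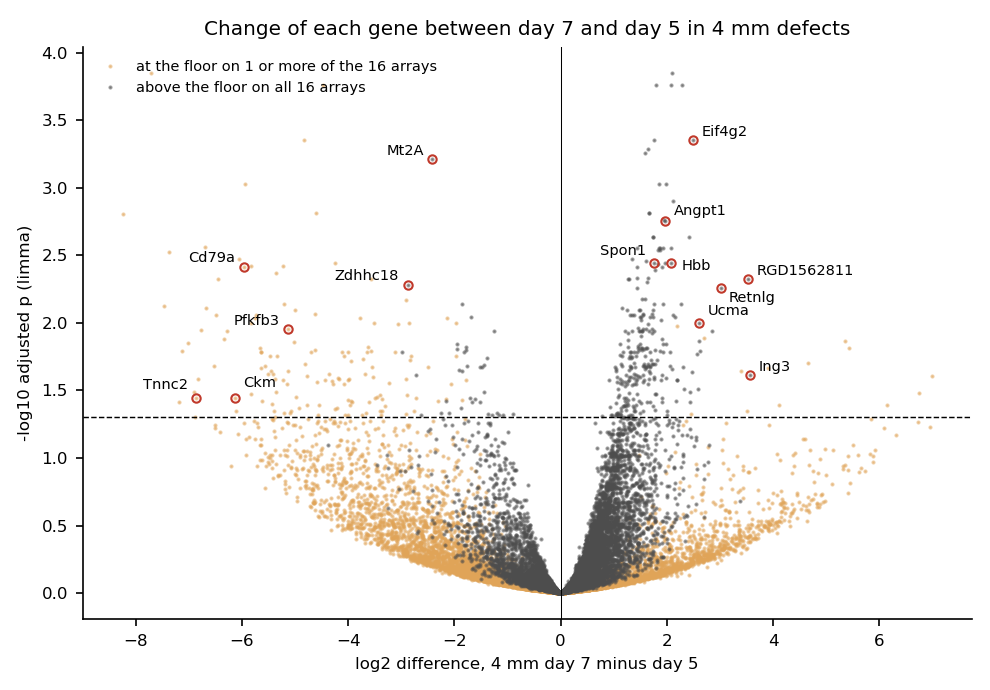
Each point is a gene, placed by its log2 difference between day 7 and day 5 of 4 mm defects and by -log10 of its limma adjusted p, with the dashed line at an adjusted p of 0.05. Genes above the floor on all 16 arrays are grey and genes with a floor value are orange; most large decreases are orange, and 14 named genes are circled.

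In 37 lists of pathway and cell type genes, 648 different genes were measured and 25 passed (3.86%), 17 higher (2.62%) and 8 lower (1.23%). How many of all genes had a positive difference was not counted, so such counts for lists stand without a share beside them. No member passed in 20 lists. These lists were bone transcription factors, fibrillar collagens, bone formation, collagen processing, cartilage, leucine-rich proteoglycans, TIMPs and ADAMTS proteases, macrophages, cytokines, interferon response, MHC class II, T cells, mast cells, smooth muscle and pericytes, cell cycle, brain, adipocytes, complement, ribosomal proteins and the respiratory chain.

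**Figure D3:**
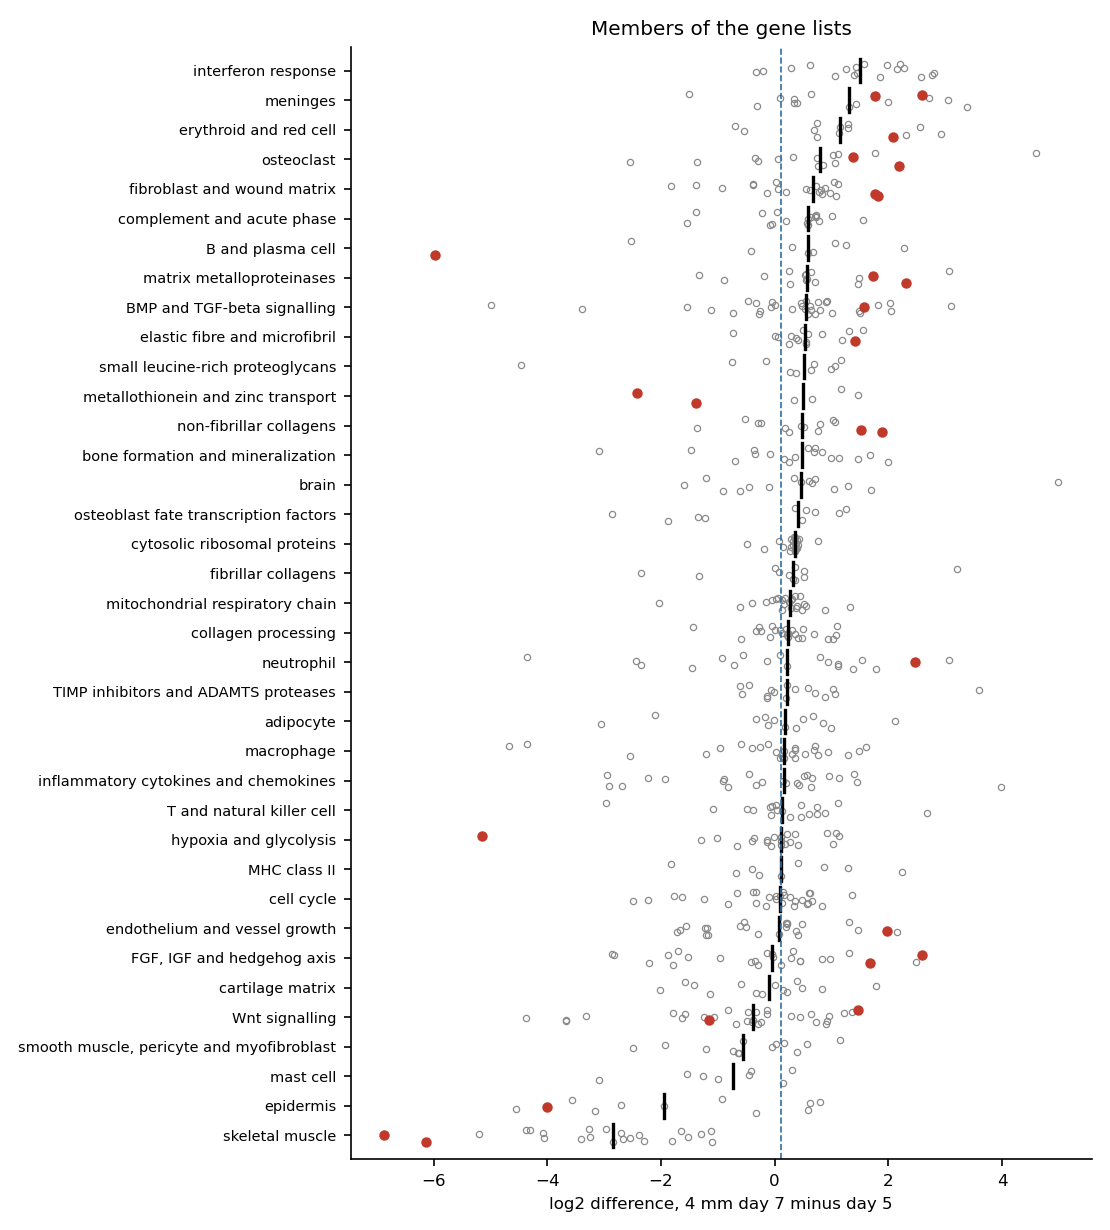
Log2 difference between day 7 and day 5 of 4 mm defects for each measured member of 37 gene lists, ordered by the list's median (black bar). Filled red points passed an adjusted p of 0.05 and open points did not; the dashed line is the median of all genes, 0.11. The skeletal muscle list lies lowest, with a median of -2.85, and the interferon list highest, at 1.51 with no member called.

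Several genes for the pericellular and elastic matrix were higher at day 7. Postn encodes periostin, a matricellular protein of periosteum and healing wounds that aids collagen assembly. It had log2 values of 2.14, 1.93, 2.53, 1.66 and 1.96 on the day 7 arrays of rats 10, 12, 13, 14 and 15, against a lowest, median and highest value of -0.84, 0.30 and 0.82 at day 5. All 5 day 7 arrays lay above every day 5 array, and the difference was 1.82 ± 0.47 (SE, 3.53-fold, adjusted p = 0.0189). Spon1, encoding the secreted adhesion protein F-spondin, showed the same separation, with 2.30, 1.89, 2.10, 1.34 and 2.07 at day 7 against -0.71, 0.28 and 1.20 at day 5. Its difference was 1.77 ± 0.37 (adjusted p = 0.00363), and its other probe differed by 1.37. Postn and Spon1 were the only called members of the 22 fibroblast and wound matrix genes measured, whose median change was 0.68.

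Tnc encodes tenascin-C, the matricellular protein of early granulation tissue, and on the probe used its values lay the other way. They were -0.99, 0.41, -0.30, 0.12 and 0.08 at day 7, against 0.84, 1.66 and 2.72 at day 5. The groups did not overlap, yet the difference of -1.82 ± 0.56 missed the threshold (adjusted p = 0.0554), and the second Tnc probe differed by 0.94, in the opposite direction.

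Among the 16 genes of elastic fibres and microfibrils, 15 had a positive difference, the median was 0.53, and Fbln5 passed. All 16 lay above the floor on all 16 arrays, where the median change over all genes was 0.25. With centred arrays the list's median was 0.25, against -0.03 for all genes above the floor, and no member passed. The share of positive differences over all genes was not counted. Fbln5 encodes fibulin-5, which links elastin to cells. It had 1.32, 1.17, 1.45, 0.91 and 1.55 at day 7 against -1.22, -0.15 and 0.67 at day 5, with no overlap and a difference of 1.41 ± 0.41 (adjusted p = 0.0447). Of 14 non-fibrillar collagens 2 passed. Col16a1, a collagen that sits on the surface of fibrils, had 1.76, 2.07, 1.57, 1.74 and 1.89 at day 7 against -1.71, 0.32 and 1.16 at day 5 (1.88 ± 0.44, adjusted p = 0.00952). Col8a2, a network collagen of vessel walls and the cornea, differed by 1.52 ± 0.36 (adjusted p = 0.00911), with the lowest day 7 array inside the range of day 5. The second probes of Col16a1 and Col8a2 differed by 0.61 and 0.24, and neither gene passed with the mean of its probes (1.25 and 0.88, adjusted p of 0.0729 and 0.304). None of the 11 fibrillar collagens passed, nor did any of 24 collagen-processing genes. Col1a1 and Col3a1 share the course of the parallel genes described above, and values of Col1a2 lay within 0.01 of Col1a1 on 9 of the 16 arrays.

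Matrix proteases that osteoblasts, chondrocytes and osteoclasts use were also higher. Mmp13 encodes collagenase 3, which cleaves fibrillar collagen in bone. It had 1.81, 3.09, 0.34, 1.47 and 2.67 in rats 10, 12, 13, 14 and 15 at day 7, against -2.58, -0.14 and 1.64 at day 5. Rats 12 and 15 were highest, rat 13 lay inside the day 5 range, and the difference was 2.30 ± 0.61 (4.93-fold, adjusted p = 0.0214). Mmp9, the gelatinase B gene of osteoclasts and neutrophils, had 1.26, 2.43, 1.04, 1.14 and 3.06 at day 7 against -1.40, 0.28 and 1.55 at day 5 (1.74 ± 0.51, adjusted p = 0.0412). Again rats 12 and 15 were highest, and the other 3 day 7 arrays lay below the highest day 5 array. Of 16 metalloproteinases measured these 2 passed and 13 had a positive difference; Mmp16, a membrane-bound member, differed by 1.47 ± 0.45 (adjusted p = 0.0566). No TIMP or ADAMTS gene passed, and Timp3, an inhibitor bound to matrix, differed by 1.06 ± 0.35 (adjusted p = 0.0727).

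Osteoclasts dissolve mineral with acid, which carbonic anhydrase 2 supplies, and digest collagen with cathepsin K. Ctsk, encoding cathepsin K, had 1.79, 1.35, 1.01, 0.85 and 2.04 at day 7 against -0.60, 0.18 and 0.46 at day 5. The groups did not overlap and the difference was 1.38 ± 0.41 (2.61-fold, adjusted p = 0.0427). Car2, encoding carbonic anhydrase 2 of osteoclasts and red cells, had -0.59, -0.80, 1.25, -1.58 and 0.75 at day 7 against -4.49, -2.38 and 0.26 at day 5 (2.19 ± 0.60, adjusted p = 0.0264). Rats 13 and 15 were highest in Car2, as they were in the red cell gene Hbb. The osteoclast list had 16 measured members with a median change of 0.80, and Ctsk and Car2 were its calls. Acp5, the tartrate-resistant phosphatase gene, differed by 0.76 ± 0.40 (adjusted p = 0.327). Tnfsf11, encoding RANKL, the signal that drives osteoclast formation, had 3.28, 2.54, 2.77, 1.28 and 2.37 at day 7. At day 5 it had -6.64, -1.37 and 1.81, and the difference of 4.6 ± 1.5 missed the threshold (adjusted p = 0.0727).

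The calls on proteases and osteoclast genes rested on single arrays. Without 1 array the call on Mmp13 ended for day 7 rats 12 and 15 (adjusted p of 0.0882 and 0.0845). For Mmp9 it ended without any 1 of day 7 rats 10, 12 and 15 and day 5 rats 16 to 20 (0.0508 to 0.190), and for Car2 without any 1 of day 7 rats 13 and 15 and day 5 rats 18 and 19 (0.0525 to 0.125). For Ctsk it ended without any 1 of day 7 rats 10, 12, 13 and 15 and day 5 rats 16 to 20 (0.0564 to 0.153). Without the 5 muscle-rich day 5 arrays the differences of Mmp13, Mmp9, Ctsk and Car2 were 1.62, 1.35, 1.22 and 1.45, and with arrays aligned on the 34 parallel genes 1.94, 1.37, 1.02 and 1.83, none of which passed.

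**Figure D4:**
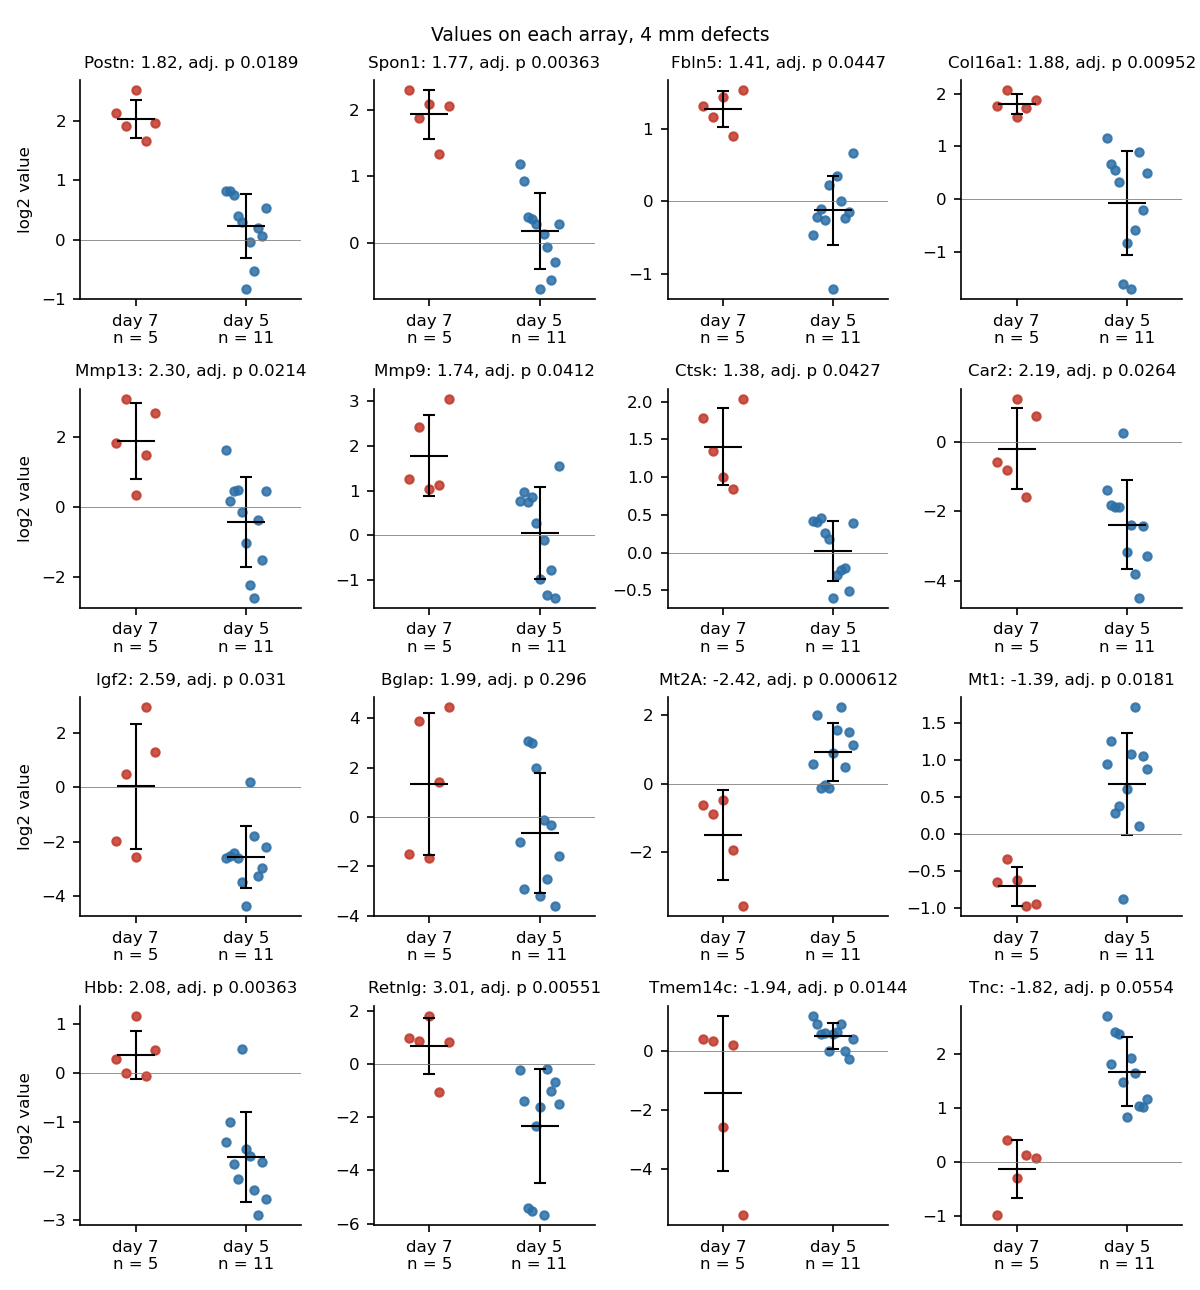
Log2 values of 16 genes on each 4 mm array, day 7 (5 arrays, red) left of day 5 (11 arrays, blue), with the mean and 1 SD; panel titles give the log2 difference between day 7 and day 5 and its adjusted p. Postn, Spon1, Fbln5, Col16a1, Ctsk, Mt2A and Tnc show no overlap, while Bglap, Igf2 and Tmem14c split the day 7 arrays.

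Genes of bone formation did not pass, and the day 7 rats differed widely in them. Bglap encodes osteocalcin, the late marker of mineralizing osteoblasts. It had -1.48, 3.90, -1.66, 1.42 and 4.46 in day 7 rats 10, 12, 13, 14 and 15, against -3.63, -1.0 and 3.07 at day 5. Rats 12 and 15 exceeded every day 5 array while rats 10 and 13 were below the day 5 median, and the difference was 1.99 ± 0.99 (adjusted p = 0.296). Dmp1, which osteocytes make, ran in the same order among the day 7 rats with -1.72, 2.70, -6.64, 1.31 and 3.54, and differed by -0.35 ± 1.04 (adjusted p = 0.921). Ibsp (bone sialoprotein), Alpl (alkaline phosphatase) and Spp1 (osteopontin) differed by 0.99 ± 1.12, 0.82 ± 0.96 and 0.71 ± 0.43. The 18 measured members had a median change of 0.48, and 12 were positive. Of the transcription factors, Runx2 and Sp7, which commit cells to the osteoblast fate, differed by -1.87 ± 1.23 and 0.71 ± 1.66, with day 7 rat 15 at the floor in both. The other 4 Runx2 probes differed by -1.49, 1.25, -0.71 and, in size, under 0.01, and so gave no single direction. Twist1, which restrains Runx2, had 0.73, 1.18, 1.19, 0.91 and 0.67 at day 7 against -0.97, -0.29 and 0.28 at day 5, without overlap, and missed the threshold (1.26 ± 0.41, adjusted p = 0.0701), and its second probe differed by 0.70.

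Ucma encodes a secreted protein of cartilage and osteoblasts that binds mineral, and it was among the 12 largest increases. It had -0.67, 2.77, 0.62, 1.72 and 3.66 in day 7 rats 10, 12, 13, 14 and 15, against -2.65, -0.62 and 1.13 at day 5 (2.61 ± 0.62, 6.12-fold, adjusted p = 0.01). Rats 15, 12 and 14 were highest, as in Bglap. The call on Ucma ended without rat 15 (adjusted p = 0.0824). Of cartilage genes proper, Col2a1 and Col10a1 differed by -1.33 ± 1.07 and 0.47 ± 1.34 (second probes -1.04 and -0.62), and none of 14 passed.

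Secreted regulators of growth factors moved in both directions. Sfrp2 and Sfrp1 encode related secreted antagonists of Wnt. Sfrp2 had 1.90, 1.62, 1.74, 0.91 and 1.41 at day 7 against -0.99, 0.16 and 0.64 at day 5, with no overlap (1.47 ± 0.42, adjusted p = 0.0379), and its other 2 probes differed by 1.29 and 0.95. With the mean of all 3 it missed the threshold (1.23, adjusted p = 0.0957). Sfrp1 had 0.24, 0.14, -0.09, 0.47 and -0.09 at day 7 against 0.23, 1.58 and 2.0 at day 5 (-1.15 ± 0.34, adjusted p = 0.0483). These were the 2 calls among 31 Wnt genes. Id1, a direct target of BMP signalling, had 1.46, 0.85, 0.68, 1.18 and 1.38 at day 7 against -1.53, -0.30 and 0.52 at day 5 (1.58 ± 0.41, adjusted p = 0.0209). It was the single call among 33 BMP and TGF-beta genes. Id2, a related target, differed by 1.02 ± 0.35 (adjusted p = 0.0937), and the ligand gene Bmp6 by 3.11 ± 0.96 (adjusted p = 0.0553).

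Igf2 encodes insulin-like growth factor 2, a growth signal of bone and meninges. It had -1.97, 0.50, -2.57, 2.95 and 1.32 in day 7 rats 10, 12, 13, 14 and 15, against -4.38, -2.59 and 0.19 at day 5 (2.59 ± 0.73, adjusted p = 0.0310). Rats 14, 15 and 12 exceeded all day 5 arrays and rats 10 and 13 did not. Rat 14 was also highest in the meninges list, and day 5 rat 17, highest in Igf2 at day 5, had that list's highest day 5 mean. Igf2 is itself a member of that list, so part of this likeness was built in. Igfbp5 encodes an IGF-binding protein abundant in bone. It had 0.80, 2.02, 1.25, 1.41 and 0.97 at day 7 against -1.30, -0.42 and 0.45 at day 5 (1.68 ± 0.45, adjusted p = 0.0234). Its second probe differed by -0.89, in the opposite direction, and with the mean of both it did not pass (0.39, adjusted p = 0.749). Igf2 and Igfbp5 were the 2 calls among 25 genes of the FGF, IGF and hedgehog axis. Angpt1, encoding the vessel-stabilizing ligand angiopoietin-1, had 1.03, 1.03, 1.22, 1.29 and 1.48 at day 7 against -1.79, -0.66 and 0.12 at day 5. With no overlap and a difference of 1.97 ± 0.39 (3.91-fold, adjusted p = 0.00177), it was the single call of 23 endothelium and vessel genes, whose median change was 0.08. Of this list 12 genes had a positive and 11 a negative difference. Emcn, an endothelial surface gene, did not overlap but missed the threshold (1.47 ± 0.51, adjusted p = 0.0962). Robo4 and Egfl7, also of the list, differed by -1.56 and -1.22 and did not pass. Kdr and Vegfa differed by 0.37 ± 0.38 and -0.66 ± 0.38, with the second Vegfa probe at 0.46.

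The matrix and regulator calls varied in how far they rested on 1 array. No single array ended the calls on Spon1, Col16a1, Col8a2 or Angpt1. The call ended without day 7 rat 13 for Postn (adjusted p = 0.0634), without rat 10 or 15 for Id1 (0.0608 and 0.0642), and without rat 12 or 14 for Igfbp5 (0.0843 and 0.0541). For Igf2 it ended without any 1 of day 7 rats 12, 14 and 15 and day 5 rat 16 (0.0602 to 0.203), and for Sfrp2 without any 1 of day 7 rats 10, 12, 13 and 15 and day 5 rats 13, 16, 18 and 20 (0.0534 to 0.101). For Fbln5 and Sfrp1 it ended without any 1 of 13 arrays each, all 5 of day 7 and 8 of day 5, which were rats 10 to 13, 16 and 18 to 20 for Fbln5 and rats 10 to 14, 17, 18 and 21 for Sfrp1 (0.0523 to 0.117 and 0.0530 to 0.128). Without the 5 muscle-rich arrays the differences of Postn, Spon1, Fbln5, Col16a1 and Angpt1 were 1.67, 1.53, 1.62, 1.76 and 1.65, with adjusted p of 0.132, 0.0642, 0.0861, 0.0669 and 0.0532. With arrays aligned on the 34 parallel genes Angpt1 and Sfrp1 passed and the other matrix and regulator calls did not, Postn differing by 1.45 and Spon1 by 1.40 (adjusted p of 0.114 and 0.0555).

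Metallothioneins are small cysteine-rich proteins that bind zinc and copper, and metals switch their genes on through short metal response elements before the gene. Glucocorticoids also induce them, through elements of their own that were not searched here. Mt1 and Mt2A, the isoforms made in most tissues, were lower at day 7, while Mt3, the isoform of nervous tissue, differed by 0.66 (adjusted p = 0.704). Their upstream bases are shown because Mt1 and Mt2A moved together and carry these elements. The bases are those 250 before the start in RefSeq, 5′ to 3′ along the gene, with capitals marking every match on either strand to the core TGCACNC or TGCGCNC of the metal response element and to the TATA box TATAAA, none of which overlap. Mt2A lies at chr19:10838709-10838958 and Mt1 at chr19:10832976-10833225, both on the minus strand of GRCr8.
Mt2A: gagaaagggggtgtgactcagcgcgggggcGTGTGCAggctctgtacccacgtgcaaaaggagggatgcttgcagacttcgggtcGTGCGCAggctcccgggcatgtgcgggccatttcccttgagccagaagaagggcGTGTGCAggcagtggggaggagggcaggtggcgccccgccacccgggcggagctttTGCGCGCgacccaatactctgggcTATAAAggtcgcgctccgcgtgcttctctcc
Mt1: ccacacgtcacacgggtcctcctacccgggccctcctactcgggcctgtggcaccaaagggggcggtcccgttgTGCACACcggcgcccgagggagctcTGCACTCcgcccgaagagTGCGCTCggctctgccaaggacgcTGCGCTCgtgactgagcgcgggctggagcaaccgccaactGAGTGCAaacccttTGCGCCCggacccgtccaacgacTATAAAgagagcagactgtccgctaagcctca
Mt2A held 4 metal response cores and Mt1 held 6. Of 33469 rat promoters of the same length 0.266% held 4 or more and 0.0269% held 6 or more; 10.3% held TGCACNC, 11.8% TGCGCNC and 12.9% TATAAA. A match in letters is a description and shows no binding.

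Mt2A had log2 values of -0.62, -0.88, -0.48, -1.95 and -3.59 on the day 7 arrays of rats 10, 12, 13, 14 and 15, against -0.13, 0.88 and 2.23 at day 5. Every day 7 array lay below every day 5 array, and the difference was -2.42 ± 0.44 (5.34-fold lower, adjusted p = 0.000612). It also passed without any 1 array and without the 5 muscle-rich day 5 arrays. Mt1 had -0.65, -0.34, -0.63, -0.98 and -0.95 at day 7 against -0.88, 0.88 and 1.72 at day 5. All day 5 arrays but that of rat 14 lay above day 7, and the difference was -1.39 ± 0.36 (2.61-fold lower, adjusted p = 0.0181). The call on Mt1 ended without day 7 rat 14 or 15 (adjusted p of 0.0518 and 0.0582) and without the muscle-rich arrays (-1.14, adjusted p = 0.179). None of 3 zinc transporter genes passed, and Slc30a1, a zinc exporter that zinc itself induces, differed by 1.16 ± 0.52 (adjusted p = 0.233).

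A globin gene and single granulocyte genes were higher at day 7, while most members of their lists did not pass. Hbb encodes beta globin. It had 0.28, 0.00, 1.16, -0.07 and 0.46 in day 7 rats 10, 12, 13, 14 and 15, against -2.89, -1.82 and 0.49 at day 5. Rat 14 of day 5 reached the level of day 7, and the difference was 2.08 ± 0.44 (4.23-fold, adjusted p = 0.00363). Of 13 red cell genes 11 had a positive difference, the median was 1.15, and Hbb alone passed. Hemgn and Rhag, both of red cell precursors, differed by 2.55 ± 0.82 and 2.30 ± 0.82 (adjusted p of 0.0697 and 0.107) and were highest in rats 13 and 15. The mean of the list was 0.59 and 0.08 in rats 13 and 15 and between -1.80 and -1.69 in the other 3, against -4.09 to -0.25 at day 5.

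Retnlg, encoding a resistin-like secreted protein of granulocytes, had 0.96, 0.87, 1.80, -1.07 and 0.84 at day 7 against -5.68, -1.5 and -0.21 at day 5 (3.01 ± 0.67, 8.07-fold, adjusted p = 0.00551). All but rat 14 lay above day 5. Stfa2l3, a stefin gene, had -0.07, -1.95, -0.54, -2.87 and 0.74 at day 7 against -6.64, -2.95 and -1.5 at day 5 (2.46 ± 0.73, adjusted p = 0.0471). It was the single call of 19 neutrophil genes, whose median change was 0.22 and whose list mean overlapped between the days. S100a9, a calcium-binding alarm protein of neutrophils, differed by 1.53 ± 0.55 (adjusted p = 0.111), and Ngp, a granule protein gene, by -4.35 ± 1.32 with 3 of the 5 day 7 arrays at the floor (adjusted p = 0.0512). The call on Stfa2l3 ended without any 1 of day 7 rats 10, 13 and 15 and day 5 rats 12, 13, 14, 17, 19 and 21 (adjusted p of 0.0530 to 0.194) and with ratios under 0.25 raised to 0.25 (1.17, adjusted p = 0.220). Hbb and Retnlg passed without any 1 array, and without the muscle-rich arrays Hbb did not pass (1.62, adjusted p = 0.0964).

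Genes induced by interferon, the antiviral signal, had the highest list median, 1.51, with 16 of 18 differences positive, yet none passed. The median change of all genes was 0.11, and the share of positive differences among them was not counted. Rsad2, Irf1, Ifit3 and Ifi44 came nearest, with 2.21 ± 0.70, 1.43 ± 0.46, 2.80 ± 0.93 and 1.40 ± 0.47 (adjusted p of 0.0623 to 0.0869). The list mean was 1.57, 0.09, 0.71, -0.05 and 0.77 in day 7 rats 10, 12, 13, 14 and 15, against -1.79 to 0.33 at day 5. Rats 10, 13 and 15 exceeded all day 5 arrays. No cytokine, macrophage or T cell gene passed; Il1b and Cxcl2, inducers and attractants of inflammation, differed by 1.14 ± 0.46 and 1.44 ± 0.82, and the macrophage and antigen-presentation genes Trem2 and Cd74 by 0.17 ± 0.37 and 0.11 ± 0.36.

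Several lower calls lay at the floor. Cd79a, a signalling chain of the B cell receptor, was at the floor on 4 of the 5 day 7 arrays and at -4.43 in rat 12, against -3.42, 0.48 and 1.38 at day 5 (-5.97 ± 1.27, adjusted p = 0.00384). Its partner Cd79b is in the same list and differed by 1.25 ± 0.60 (adjusted p = 0.276). Pfkfb3, encoding an enzyme that speeds glycolysis, was at the floor on 4 of 5 day 7 arrays and at 0.44 in rat 10, against -1.82, 0.06 and 0.95 at day 5 (-5.14 ± 1.23, adjusted p = 0.0111). It was the single call of 22 hypoxia and glycolysis genes, whose median change was 0.11. Neither Cd79a nor Pfkfb3 passed once values under 0.25 were raised to 0.25 (-1.90 and -1.42, adjusted p of 0.0705 and 0.130), so the sizes of these differences depend on where the floor lies.

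The 23 muscle genes all had a negative difference, with a median of -2.85, and 2 passed. Ckm, the muscle creatine kinase gene, had -6.64, -6.64, -0.65, -3.73 and 0.00 in day 7 rats 10, 12, 13, 14 and 15 against -1.51, 0.51 and 7.52 at day 5 (-6.13 ± 1.75, adjusted p = 0.0358). Tnnc2, troponin C of fast fibres, had -6.64, -1.15, -6.64, -6.64 and -5.08 at day 7 against -4.33, 0.64 and 6.87 at day 5 (-6.87 ± 1.96, adjusted p = 0.0359). Both calls ended without the 5 muscle-rich day 5 arrays, with differences of -3.25 and -3.61 (adjusted p of 0.511 and 0.517). Those arrays were set apart by a list that holds Ckm and Tnnc2, so smaller differences without them were built in. With ratios under 0.25 raised to 0.25 both calls ended too, with differences of -3.93 and -3.72 (adjusted p of 0.0684 and 0.109). Without any 1 of day 5 rats 18 to 21 they ended as well, as they did without day 7 rats 10 and 14, without rat 12 for Ckm and without rats 13 and 15 for Tnnc2 (0.0591 to 0.125 for Ckm and 0.0599 to 0.0948 for Tnnc2). Perp, a desmosome gene of the epidermis list, differed by -4.01 ± 1.15 (adjusted p = 0.0369), with day 7 rats 14 and 15 at the floor. It was highest in day 5 rat 21, one of the muscle-rich arrays, and its call ended without any 1 of day 7 rats 13, 14 and 15 and day 5 rats 17, 20 and 21 (0.0503 to 0.165). With raised ratios Perp differed by -1.81 and did not pass (adjusted p = 0.0596). The list's median was -1.95.

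Tissue of the dura and brain lies under these defects, and its genes varied between rats on both days. Slc47a1, a transporter of the meninges, had 1.06, 1.46, 0.25, 1.38 and 1.25 at day 7 against -1.84, -0.78 and 0.22 at day 5 (1.77 ± 0.43, adjusted p = 0.0115). It and Igf2 were the 2 calls among 15 meninges genes, of which 13 had a positive difference, with a median of 1.31. Ptgds, the prostaglandin D synthase gene of the arachnoid, had 3.91 and 4.99 in rats 12 and 14 and -2.70 to -1.75 in the other 3 at day 7, against -4.37, -3.57 and 3.59 at day 5 (3.38 ± 1.45, adjusted p = 0.209). Aldh1a2, which makes retinoic acid in the meninges, differed by 3.04 ± 1.35 (adjusted p = 0.223). The meninges list mean was -0.54, 0.80, -2.29, 2.78 and 0.17 in rats 10, 12, 13, 14 and 15, against -1.83 to 1.46 at day 5. Of 15 brain genes none passed, and Aqp4 and Gfap, both of astrocytes, differed by 4.99 ± 1.67 (adjusted p = 0.0857) and -0.91 ± 1.38, with Aqp4 at the floor on 9 of the 11 day 5 arrays. The other 3 Aqp4 probes differed by 2.24, 1.52 and -1.18. Slc47a1 did not pass with arrays aligned on the 34 parallel genes or without the muscle-rich arrays (1.40 and 1.83, adjusted p of 0.0935 and 0.0557). The part of adhering meninges in the differences of Igf2 and Slc47a1 was not tested.

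Of 29 cell division genes measured none passed, the median change was 0.10, and Ccnb1 and Top2a differed by -0.15 ± 0.44 and 0.34 ± 0.56, with the second Top2a probe at -0.31. Of 13 adipocyte genes none passed, 7 had a positive and 6 a negative difference, and the median was 0.17. Lpl, encoding the lipase of capillary walls, did not overlap but missed the threshold (2.11 ± 0.66, adjusted p = 0.0593, second probe 1.25). Plin1 and Lep went the other way, differing by -3.05 and -2.10, with floor values at day 7 in both. Among smooth muscle and pericyte genes the median was -0.55, with 5 positive and 8 negative differences, and none passed. Cspg4, encoding the pericyte proteoglycan NG2, differed by -1.92 ± 0.64 (adjusted p = 0.0851) with rat 15 at -5.16, while Rgs5 of the same list differed by 1.16.

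Leaving out genes with any floor value, the 12 largest increases ran from 2.44 to 3.56. Besides Retnlg, Ucma and Igf2 they were Ing3, RGD1562811, Tent5c, Krcc1, Tspyl1, C10h5orf15, Eif4g2, Pros1 and Or8c11. Eif4g2, encoding a relative of the translation factor eIF4G, had 2.19, 2.29, 2.03, 2.18 and 1.74 at day 7 against -0.83, -0.46 and 0.18 at day 5 (2.49 ± 0.44, 5.62-fold, adjusted p = 0.000443). The spread within day 7 was small and no arrays overlapped, but its other 4 probes differed by 0.39 to 1.12, and with the mean of its 5 probes it did not pass (0.99, adjusted p = 0.105). Ing3, encoding a subunit of the NuA4 histone acetyltransferase, had 1.58, 1.27, 1.29, 1.66 and 1.67 at day 7 against -5.75, -2.22 and 0.37 at day 5 (3.56 ± 0.96, adjusted p = 0.0243). Pros1, encoding the anticoagulant protein S, had 1.81, 1.88, 1.68, 2.22 and 1.41 at day 7 against -2.93, -0.42 and 0.33 at day 5 (2.48 ± 0.67, adjusted p = 0.0231). Its other probe differed by 0.66, and with the mean of both it did not pass (1.57, adjusted p = 0.092). Tspyl1 and C10h5orf15 likewise did not overlap between the days and differed by 2.61 ± 0.64 and 2.57 ± 0.66.

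A second pattern joined RGD1562811, Tent5c and Or8c11. RGD1562811, which has no named role here, had 0.40, 0.33, 3.08, -1.05 and 2.11 in day 7 rats 10, 12, 13, 14 and 15 against -5.48, -2.37 and -0.38 at day 5 (3.53 ± 0.77, adjusted p = 0.00474). Tent5c, encoding a poly(A) polymerase, had -1.40, -0.67, 1.65, -1.56 and 1.00 at day 7 against -4.77, -2.94 and -0.17 at day 5 (2.85 ± 0.69, adjusted p = 0.0114). With ratios under 0.25 raised to 0.25 Tent5c differed by 1.64 and did not pass (adjusted p = 0.0656). Rats 13 and 15 were highest in both, as in the olfactory receptor gene Or8c11 (2.44 ± 0.69) and in the red cell list.

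The 12 largest decreases above the floor ran from -2.98 to -1.87: RGD1565775, Zdhhc18, H1f5, Aspscr1, Mt2A, Msc, Tlx3, Itga5, Tmem14c, Tmem160, Notch2 and Polr1g. Itga5 encodes integrin alpha 5, which binds fibronectin of the early wound matrix. It had -0.58, -0.44, -0.11, -0.27 and -0.77 at day 7 against 0.57, 1.87 and 2.38 at day 5, with no overlap (-2.10 ± 0.62, adjusted p = 0.0463), and its other 2 probes differed by -0.59 and -1.27. Zdhhc18, encoding a protein palmitoyltransferase, had -2.26, -1.23, -1.56, -2.48 and -0.83 at day 7 against -0.29, 1.23 and 2.25 at day 5 (-2.88 ± 0.63, adjusted p = 0.00520), and its other probe differed by -0.35. H1f5, a linker histone gene of dividing cells, had -2.16, -0.70, -0.40, -0.45 and -0.08 at day 7 against 0.86, 1.85 and 2.70 at day 5 (-2.72 ± 0.73, adjusted p = 0.0243). Notch2, a receptor gene of the Notch pathway, differed by -1.92 ± 0.51 (adjusted p = 0.0223), with rat 10 lowest. Tlx3, a homeobox gene, differed by -2.15 ± 0.62 without overlap.

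In 4 of these decreases the low values came from rats 13 and 15. Tmem14c, encoding a mitochondrial membrane protein of haem synthesis, had 0.42, 0.36, -2.58, 0.21 and -5.57 in day 7 rats 10, 12, 13, 14 and 15, against -0.27, 0.60 and 1.19 at day 5. The other 3 day 7 arrays lay within the day 5 range, and the difference of -1.94 ± 0.48 (adjusted p = 0.0144) did not pass without rat 13 or rat 15 (0.0756 and 0.324). Tmem160, Msc and Polr1g had -5.57, -4.31 and -4.89 in rat 15 and -2.88, -3.64 and -3.19 in rat 13, and without rat 15 their adjusted p was 0.329, 0.320 and 0.378. Without rat 13 it was 0.0931, 0.238 and 0.182. With ratios under 0.25 raised to 0.25, Tmem14c, Tmem160 and Polr1g differed by -1.11, -1.05 and -1.06 and did not pass (0.0540, 0.0544 and 0.0663). The other Polr1g probe differed by -0.11, and with the mean of both Polr1g did not pass (-0.99, adjusted p = 0.162). P3h3, Fzd2, Egfl7 and Cspg4, which did not pass, were also lowest in rats 15 and 13. The cause of these shared low values was not tested.

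Single arrays also decided other calls on the largest changes. The call ended without day 7 rat 15 for Krcc1, RGD1565775 and Tent5c (adjusted p of 0.0832, 0.112 and 0.0554), and for Tent5c also without rat 13 (0.0688). It ended without day 7 rat 14 for Pros1 (0.0621), without rat 10 for H1f5 (0.101), without rat 10 or day 5 rat 19 for Notch2 (0.110 and 0.0547), and without day 7 rats 10, 14 or 15 for Ing3 (0.0521 to 0.0621). It ended without any 1 of day 7 rats 10, 13 and 15 and day 5 rats 16 and 18 for Or8c11 (0.0536 to 0.133), and without any 1 of day 7 rats 12, 13 and 15 and day 5 rats 11 to 14 and 18 for Tlx3 (0.0507 to 0.194). For Aspscr1 it ended without any 1 array other than day 7 rat 13 and day 5 rat 14 (0.0534 to 0.166), and for Itga5 without any 1 other than day 5 rats 19 and 20 (0.0514 to 0.116). For Msc it ended without any 1 of day 7 rats 13 and 15 and day 5 rats 10 to 14 and 16 to 19 (0.0506 to 0.320), and for Polr1g without any 1 of day 7 rats 13, 14 and 15 and day 5 rats 10 to 13 and 16 to 19 (0.0515 to 0.378). Of all 48 named genes that passed, 15 did so without any 1 array, 47 with centred arrays (all but Fbln5) and 48 after quantile normalization. With arrays aligned on the 34 parallel genes 24 passed, and without the 5 muscle-rich arrays 6 passed: Retnlg, Eif4g2, Zdhhc18, Mt2A, Cd79a and Igfbp5.

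The same days were set against each other in 8 mm defects, where 1027 genes (6.43%) passed, 287 (1.8%) higher and 740 (4.63%) lower at day 7, with a median change of all genes of -0.33. Of the 266 genes higher in 4 mm defects, 51 were called higher in 8 mm defects, 19.2% of the 4 mm list and 17.8% of the 8 mm list. Of the 170 lower genes, 31 were called lower, 18.2% of the 4 mm list and 4.19% of the 8 mm list. Signs matched for 255 of the 266 and 145 of the 170, and the share of matching signs over all genes was not counted. Of the 48 named genes that passed in 4 mm defects, 20 also passed in 8 mm defects. The 20 included Spon1 (1.77 in 4 mm and 1.31 in 8 mm defects), Angpt1 (1.97 and 1.36) and Igf2 (2.59 and 2.76). Also among them were Ucma (2.61 and 2.27), Igfbp5 (1.68 and 1.58), Sfrp1 (-1.15 and -1.76) and Itga5 (-2.10 and -2.04). Mt2A (-2.42 and -1.42) and Mt1 (-1.39 and -1.64) passed in both sizes too. Mmp13 differed by 2.30 ± 0.61 in 4 mm and 0.26 ± 0.60 in 8 mm defects (adjusted p = 0.0214 and 0.850). The difference between sizes for Mmp13 was 2.04 ± 0.86 and did not pass (adjusted p = 0.406). The share of probes at the floor in 8 mm defects was 10.1% to 17.2% at day 7 and 10.1% to 10.7% at day 5 (exact permutation p = 0.0406). Its median was 10.2% at day 7 and 10.1% at day 5. Rat 13 had the highest day 7 share in both sizes, 17.2% in 8 mm and 16.7% in 4 mm defects.

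Only 3 genes (0.0188%) passed the test of a different change in 4 mm and 8 mm defects, each with an adjusted p of 0.0418. Usp47, encoding a deubiquitinase, had 1.10, 1.06, 1.09, 1.30 and 1.34 at day 7 in 4 mm defects against -1.40, -0.37 and 0.66 at day 5 (1.56 ± 0.43, adjusted p = 0.0266). In 8 mm defects it was -1.36 ± 1.95 at day 7 and 0.10 ± 0.68 at day 5 (SD), a difference of -1.46 ± 0.42, so that the changes differed by 3.02 ± 0.60 between sizes. Hrct1 and Rfesd differed by -0.07 ± 0.47 and 0.55 ± 0.55 in 4 mm and by -3.28 ± 0.46 and -3.14 ± 0.54 in 8 mm defects. Their day 7 values in 8 mm defects ran from -6.63 to -0.45 for Hrct1 and from the floor to 0.00 for Rfesd. All 3 calls ended without any 1 of day 7 rats 10, 12, 14 and 15 of 4 mm defects or rats 13 and 15 of 8 mm defects. The call on Usp47 in 4 mm defects ended without any 1 of day 7 rats 10, 13, 14 and 15 (adjusted p of 0.0515 to 0.0735), its other probe differed by 0.39, and the size difference did not pass with the mean of both.

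**Figure D5:**
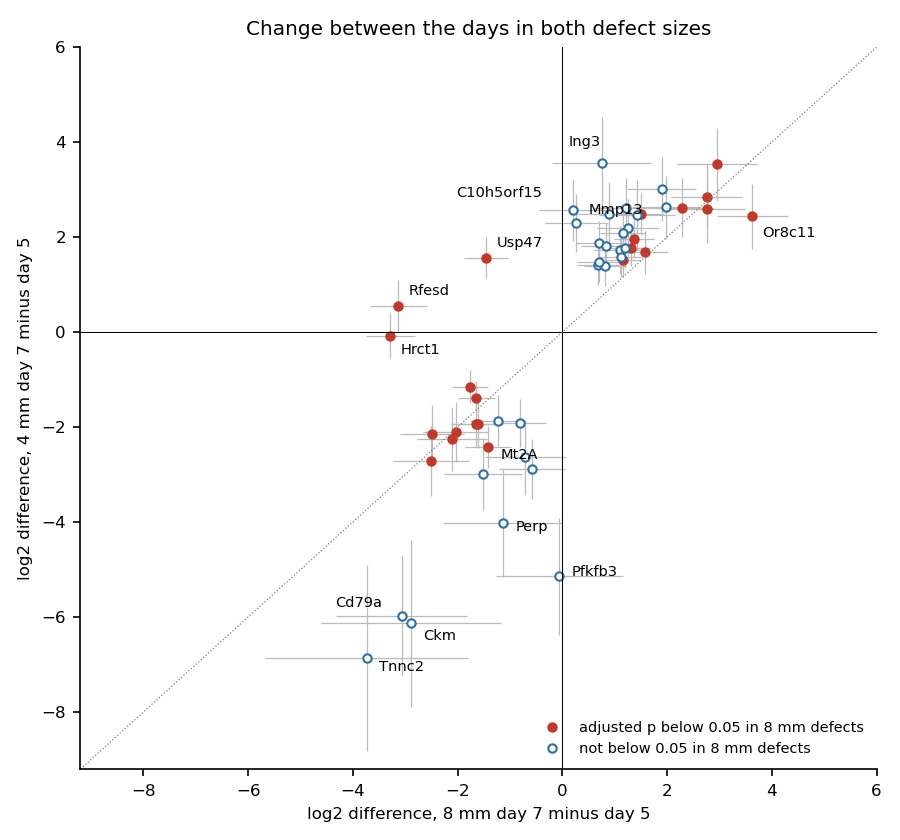
Log2 difference between day 7 and day 5 in 4 mm defects (vertical) against that in 8 mm defects (horizontal) for the 48 named genes that passed in 4 mm defects and for Hrct1 and Rfesd; bars are SE and the dotted line marks equal change. Filled red points passed in 8 mm defects and open blue points did not. Usp47, Rfesd and Hrct1 lie above the line, with negative changes in 8 mm defects.

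Over the whole course in 4 mm defects, day 7 was the highest day for several matrix genes. Mean log2 values of Postn at days 1, 3, 5, 7, 10, 14 and 21 were -3.06 ± 0.27, -0.61 ± 0.52, 0.23 ± 0.54, 2.04 ± 0.32, 1.22 ± 0.97, 0.25 ± 1.23 and 0.08 ± 0.97 (SD, n = 3, 8, 11, 5, 4, 5 and 6). Spon1 had -5.00, -0.35, 0.17, 1.94, 1.71, 0.09 and -0.39 on these days, and Col16a1 had -3.60, -0.98, -0.08, 1.81, 1.00, 0.16 and -0.87. Days 7 and 10 of all 3 genes differed by less than 1 SD of day 10. Mmp13 was at 1.88 ± 1.08 at day 7 and 1.84 ± 2.44 at day 10, and Ctsk at 1.41 ± 0.51 and 1.52 ± 0.70, so these neighbouring days did not differ beyond their spread. Bglap had -0.66 ± 2.44, 1.33 ± 2.88, 4.31 ± 1.83, 4.54 ± 3.21 and 4.49 ± 1.79 at days 5, 7, 10, 14 and 21, and was highest from day 10 on. Mt2A had 3.07 ± 0.62, 2.42 ± 0.33, 0.91 ± 0.84, -1.5 ± 1.30, -0.38 ± 1.22, -1.54 ± 0.84 and -2.21 ± 0.45 over the 7 days, and Mt1 had 2.53, 2.03, 0.67, -0.71, -0.33, -1.78 and -2.22. The Tnc probe used had -0.86, 1.44, 1.68, -0.14, -0.52, -2.09 and -3.86, a course that its second probe, 0.94 higher at day 7 than at day 5, did not share at that step. These courses are descriptions, and only the step between days 7 and 5 was tested here.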

How the data were processed

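RNA of 93 rat calvarial defects was labelled with Cy3 and hybridised to Agilent one-colour arrays, per the labels' protocols. The values were deposited by the authors as 1 ratio per probe to that probe's median over the arrays, with a lowest value of 0.01, as read from the values. How arrays were scaled to each other is not given in the sources used here, and the number of arrays limits the precision.

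Ratios were turned to log2 with no pseudocount. Of 41090 probes, 20932 had 1 gene symbol, 0 had several and 20158 had none. Of these 17424 were matched to RefSeq by accession and 2316 symbols were updated. The probe with the largest interquartile range stood for each of 15975 genes, 3880 of which had several probes. One limma model (version 3.58.1, R 4.3.3) of 14 day and size groups was fitted to all arrays, with Benjamini-Hochberg adjustment over all genes and a threshold of 0.05; the contrasts were day 7 minus day 5 in 4 mm defects, the same in 8 mm defects, and their difference. Array measures were compared by two-sided exact permutation tests. The fit was tested on simulated data.

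Named genes were the 12 largest increases and 12 largest decreases above the floor, genes passing the size difference, list members that passed or had the smallest p, and a fixed panel. Members and lists were chosen with earlier results of these data known. Labels call each sample a separate defect. The limma p-values of the main fit rest on the spread between samples within day and size groups. This spread was pooled over all arrays of the series, and not taken from the 16 arrays compared alone. No 2 of the 16 arrays were copies, as the highest correlation between 2 of them was 0.384. Alternatives changed the scaling, the floor, the filter, the probe rule, the samples and the block.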

Additional observations from a re-analysis of the deposited data

Results flagged for a closer look

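Among 109 sets of 5 day 7 values checked with Dixon's test, 7 held an array far from the other 4. Chance alone gives about 1 in 20, which is near this share. Cd79a stood at -4.43 in rat 12 while the other 4 arrays were at the floor. Pfkfb3 stood at 0.44 in rat 10 and Tnnc2 at -1.15 in rat 12, in each case above arrays at or near the floor. Sp7, the osteoblast transcription factor gene, was at -6.64 in rat 15 and between 0.36 and 1.26 in the others. Col2a1, the cartilage collagen gene, was at -6.64 in rat 13 and between -1.27 and 0.00 in the others, and Cspg4 was at -5.16 in rat 15. The median log2 value of probes never at the floor was 0.29 in rat 13, the lowest of day 7, and rat 13 also had the highest floor share, 16.7%.

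The change between the days differed between 4 mm and 8 mm defects, by limma's test of the difference, for Usp47 (3.02), Hrct1 (3.21) and Rfesd (3.69), each with an adjusted p of 0.0418. Usp47 had 5 of 5 day 7 arrays of 4 mm defects above all 11 of day 5.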

How the results depend on the processing

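No difference among the 48 named calls changed sign under any alternative run. The 436 calls in 4 mm defects became 1235 with centred arrays, 1618 after quantile normalization, 1977 with the 2 groups alone in the fit, 965 with ratios under 0.25 raised to 0.25, 112 among the 7987 genes with the widest interquartile range, and 2079 with array weights. Alternatives chosen after seeing the data gave 1132 calls with centred arrays and no floor values, 189 with arrays aligned on the genes parallel to Col1a1, and 94 without the 5 muscle-rich day 5 arrays. Leaving out 1 array gave 233 (day 7 rat 15) to 450 calls. Restricting to genes above the floor or averaging probes gave 338 and 326. Of the 48 named calls, 38 passed with raised ratios, 35 with probe means and 42 with 2 groups alone; Zdhhc18 and Mt2A passed in every setting.

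The 1027 calls in 8 mm defects became 1893 with centred arrays, 2455 after quantile normalization, 2082 with the 2 groups alone, 2000 with raised ratios, 275 among those 7987 genes and 2750 with array weights. Leaving out 1 day 7 array gave 421 (rat 13) to 1028, and 543 without rat 14. The 3 size differences became 17, 58, 341, 0, 0 and 771 under these settings, 0 with probe means, and 0 to 71 without 1 day 7 array. The causes of these shifts were not tested.

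With the rat number as a replicate block 190 genes passed in 4 mm defects, 99 higher and 91 lower, and 22 of the 48 named. Samples of equal number were not alike: rats 10, 12, 13 and 14 had correlations of -0.02, 0.07, -0.01 and -0.15 between the days. No array correlated best with its own number, and the best correlations with any number were only 0.08 to 0.19. Correlations this low cannot decide whether a number marks the same animal or batch on both days.

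Scanner signal over background was not analysed here, so whether a low value was above background is unknown, and the floor hides the size of decreases. Day 7 rests on 5 arrays, which limits the precision of each mean.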
